A study of Mus musculus with 17 samples.

Results

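The microRNAs (miRs) mmu-miR-155, mmu-miR-150, mmu-miR-223, mmu-miR-142-3p and mmu-miR-142-5p are made mainly in white blood cells, and they were followed here in the mouse kidney after injury. They were chosen by name, as 5 of the 569 mouse miRs on the array, and each was read in all 17 samples. miR-155 and miR-150 were above background in every sample. miR-223 was above background in 9 of the 17 samples, and each miR-142 strand in 2.

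The samples were kidneys of C57/BL6 mice aged 10-12 weeks, and each sample was a pool of 3 mice. The IRI group had ischemia reperfusion injury by 30 minutes of warm ischemia on 1 side, the sham group was operated without ischemia, and the naive group was left untreated. IRI and sham kidneys were taken at 8 times, on days 1, 3, 5 and 7, on days 10 and 14, and on days 21 and 30, which gave 8 samples per arm and 1 naive sample. The labels call the mice female and the study's methods call them male. Since each arm and day is 1 pool, the 8 days served as the replicates of an arm, so that every error below mixes the spread between pools with change over time.

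The IRI and sham samples of a day shared an array, IRI in the Cy3 channel and sham in the Cy5 channel, and the naive sample was hybridised alone in Cy3. The dyes were not swapped, so a constant difference between IRI and sham and a constant difference between the dyes cannot be told apart. Empty spots, which hold no probe, had a median intensity of 185.5 to 515.9 on the IRI channels, of 32.98 to 43.93 on the sham channels and of 510.9 on the naive channel. The log2 IRI/sham ratios of the 162 tested miRs on an array had a Pearson correlation with the mean of the other arrays of 0.23 on day 1 and 0.43 on day 5, against 0.58 to 0.84 on the other days. Day 1 held the highest or lowest ratio of 61 of the 162 miRs and day 5 that of 63, so the mean ratios and slopes of the leukocyte miRs, the calls of the immune and tubule lists and the correlations between courses were also computed without each of these arrays. Of 12 kidney tubule miRs, 9 were above background in all samples.

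miRs are short RNAs that pair through their seed, the bases 2 to 8 from the 5′ end, with messenger RNAs and lower the output of these messages. Several are made mainly in blood cells. miR-223 is a miR of neutrophils and other myeloid cells, miR-150 is abundant in mature B and T lymphocytes and falls when these cells are activated, and miR-155 is induced in activated lymphocytes and macrophages. Both strands of the miR-142 hairpin are found across the leukocyte lineages. After warm ischemia the kidney draws in neutrophils and macrophages early and lymphocytes over a longer time, which is why the timing of these miRs is of interest. In whole tissue, fewer cells of a type and less RNA per cell cannot be told apart.

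The mature sequences below are shown because they are the targets the spots stand for. Each carries its own seed, in capitals, and no other of the 569 array targets shares any of these seeds. The printed sequences are those of the deposited files and were identical to RefSeq mature miRs (GRCm38.p6).
miR-155: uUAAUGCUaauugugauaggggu
miR-223: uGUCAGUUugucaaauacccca
miR-142-3p: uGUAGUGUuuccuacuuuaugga
miR-142-5p: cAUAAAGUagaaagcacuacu
The closest other array target differed by 8 edits from miR-155 (miR-26b), by 9 from miR-223 (miR-204), by 8 from miR-142-3p (miR-190) and by 7 from miR-142-5p (miR-291a-5p). Mature miR-155 lies at chr16:84714143-84714165 on the plus strand, in Mir155, which overlaps the long non-coding RNA gene Mir155hg. Mature miR-223 lies at chrX:96242884-96242905 on the plus strand, in Mir223, which overlaps the long non-coding RNA gene F630028O10Rik. The miR-142 strands come from the arms of 1 hairpin of 64 bases, Mir142, at chr11:87756864-87756927 on the plus strand, with Tspoap1 as the nearest coding gene. In this hairpin the 2 mature strands, 5p first, are in capitals.
Mir142: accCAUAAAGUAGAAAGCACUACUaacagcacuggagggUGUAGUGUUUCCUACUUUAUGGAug

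The comparison of IRI with sham asked whether these leukocyte miRs stood higher in the injured kidney, and the comparison over days asked when. miR-155 stood higher in IRI than in sham on all 8 days, as did 13.0% of the 162 tested miRs. miR-150 stood higher on 7 of 8 days, a looser criterion that a larger share of the tested miRs met. The mean fold was 2.86 for miR-155 and 1.89 for miR-150. miR-223 was above background in IRI on 7 of 8 days and in sham on 1 of 8 days. Both miR-142 strands lay at the array background in both arms. Levels are normalized linear intensities after a background correction that adds 50, on which the median miR of every sample lies near 95, so a level near 95 stands for a dim spot and not for a measured amount.

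**Figure D1:**
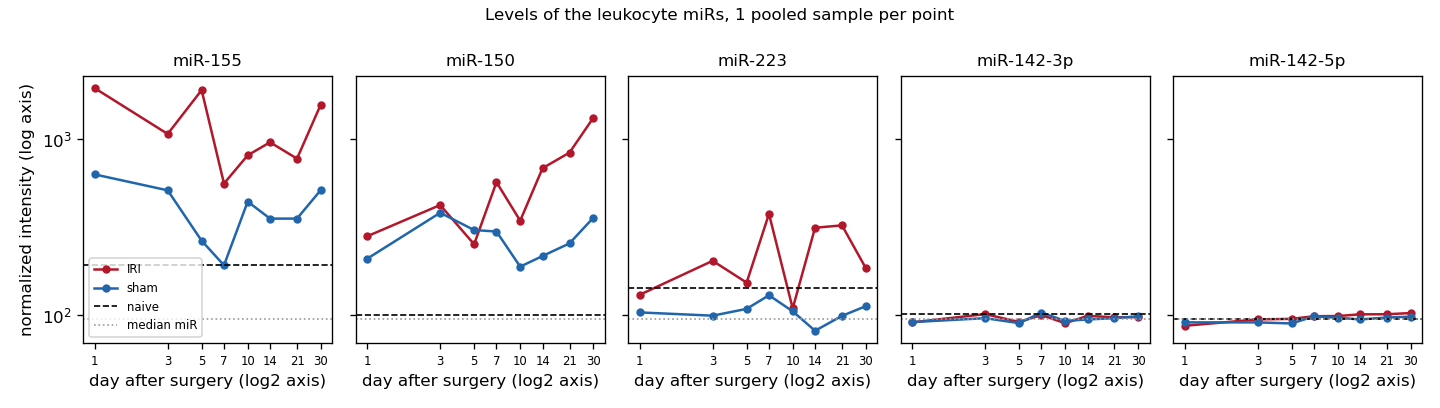
Normalized intensity (log axis) of the 5 leukocyte miRs against the day after surgery (log2 axis), with 1 pooled sample per point. Red is IRI, blue is sham, the dashed line is the naive sample and the dotted line is the median miR of the arrays. miR-155 stood above sham on every day, miR-150 climbed in IRI from 252 on day 5 to 1316 on day 30, and both miR-142 strands stayed at the dotted line.

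miR-155 stood above sham from the first day. From day 1 to day 30, in the order of the 8 days, its level in IRI was 1944, 1067, 1894, 558, 807, 957, 773 and 1566. In sham, over the same days, it was 629, 511, 264, 191, 441, 353, 353 and 512. Both arms were at their highest on day 1 and at their lowest on day 7, and 7 of the 8 IRI samples lay above the highest sham sample. The naive sample was at 193, below every IRI sample and below all sham samples but that of day 7. In the processed values of the authors naive (279) was also above the sham sample of day 5 (209).

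The log2 IRI/sham ratio of miR-155 averaged 1.52 (SE 0.20, n = 8 arrays). It passed the test across miRs (limma, Benjamini-Hochberg adjusted p = 0.000887) and ranked 5 of 162. The exact two-sided sign-flip test over the 8 arrays gave p = 0.0078125, the smallest it can give. At this threshold 18.5% of the 162 tested miRs were called higher in IRI and 17.9% lower (36.4% in either direction), so a call of this kind was common on these arrays. The split depended on the scaling: with median scaling of the channels 34 of 156 miRs were called higher and 9 lower, and the median of the mean log2 ratios was 0.20. In 2.47% of the miRs every IRI sample lay above every sham sample, which none of the leukocyte miRs did. The median miR had a mean log2 ratio of -0.04 with the scaling used here. With median scaling the mean log2 ratio was 1.76 for miR-155 and 1.23 for miR-150, both above the shifted median. That of miR-223 was 1.32, taken against sham spots that were mostly not above background.

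From day 1 to day 30 the log2 ratio of miR-155 was 1.63, 1.06, 2.84, 1.54, 0.87, 1.44, 1.13 and 1.61. The injured kidney was thus already 3.09-fold above sham on day 1, and no trend of the ratio with time was detected (slope of -0.07 per doubling of days, SE 0.14, limma adjusted p = 0.832). The ratio of day 5 was 7.17-fold. On that day IRI, at 1894, was near its highest level, and sham, at 264, was below its median of 397. Without the day 5 array the mean log2 ratio was 1.33, and it passed the test with every array left out in turn.

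miR-150 rose with time in the injured kidney. From day 1 to day 30 its level in IRI was 280, 421, 252, 568, 343, 682, 836 and 1316. In sham it was 209, 381, 304, 298, 188, 216, 255 and 356. The 3 latest IRI samples were the 3 highest of all 17, and the groups overlapped on the earlier days, with 5 of the 8 IRI samples above the highest sham sample. The naive sample was at 101, near the median miR.

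Within IRI the log2 level of miR-150 had a slope of 0.42 per doubling of days (SE 0.11, limma adjusted p = 0.0482, exact permutation of the days p = 0.0156). This was the sixth highest slope of the tested miRs, of which 4.32% were called rising within IRI and 8.64% in either direction. Within sham the slope was 0.03 (SE 0.09, limma adjusted p = 0.995), and 0.617% of the miRs were called rising there. The call within IRI was lost without the array of any single day other than day 10, with adjusted p-values up to 0.127, and with median scaling of the channels (slope 0.49, adjusted p = 0.333), so it stood at the edge of the threshold.

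Over the same days the log2 IRI/sham ratio of miR-150 was 0.42, 0.15, -0.27, 0.93, 0.87, 1.66, 1.71 and 1.88. It averaged 0.10 (SD 0.35, 3 arrays) on days 1, 3 and 5 and 1.75 (SD 0.12, 3 arrays) on days 14, 21 and 30, which correspond to 1.07-fold and 3.37-fold. These windows were set after the values were seen and have no test. The slope of the ratio, which tests whether the time courses of the arms differ, was 0.39 per doubling of days (SE 0.11). Its limma adjusted p was 0.121, and the exact permutation of the days gave an unadjusted p of 0.0198. In that test 1.23% of the miRs were called rising and 2.47% in either direction.

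A dye effect that is the same on every array cancels in this slope. Without the day 1 array the slope was 0.64 with an adjusted p of 0.0277 (limma, 7 arrays), and on a linear scale of days it also passed (adjusted p = 0.0394), so the side of the threshold depended on the first day and on the time scale. Both settings called more miRs rising than the main fit, 15 of 160 without day 1 and 10 of 162 on linear days. Over all days the mean log2 ratio of miR-150 was 0.92 (SE 0.25, limma adjusted p = 0.0257), and the exact sign-flip test gave p = 0.0234 (n = 8 arrays). This mean was no longer called without the array of day 7, 14, 21 or 30 (adjusted p up to 0.0705) or with values under 200 set to 200 (adjusted p = 0.0555).

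**Figure D2:**
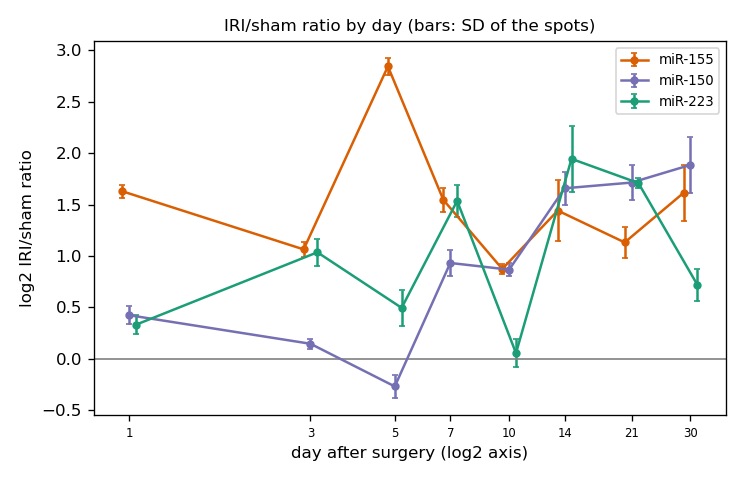
Log2 IRI/sham ratio of miR-155, miR-150 and miR-223 against the day after surgery (log2 axis). Points are 1 array each, and bars are the SD over the 6 spots of a miR on the array. miR-155 was highest on day 5 (2.84), miR-150 went from -0.27 on day 5 to 1.88 on day 30, and miR-223 moved between 0.05 and 1.94 against sham spots that were above background on 1 of 8 days.

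miR-223 was dim, and in the sham arm it was mostly not measured. From day 1 to day 30 its level in IRI was 130, 203, 153, 375, 109, 313, 323 and 185. In sham it ran from 81.3 on day 14 to 129 on day 7 with a median of 104, and the naive sample was at 142. Thus 7 of the 8 IRI samples lay above the highest sham sample. None of the sham samples lay above naive, but naive was in the other dye and most of these sham values were not above background. The IRI spots of miR-223 were above background on 7 of 8 days, all but day 10, and the sham spots on 1 of 8 days. Over all 8 days the sham spots exceeded the empty spots by 3.92 to 9.13 intensity units, with the highest value on day 1, the day above background.

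miR-223 entered the test only through its IRI samples, since 4 of them and no other sample reached the intensity of 200 that a miR had to reach once, so it had to differ in this direction to be tested at all, and its p-values from those 162 miRs are not used. Over all 569 miRs, with no filter, its mean log2 ratio was 0.98 (SE 0.23, limma adjusted p = 0.0284, higher in 8 of 8 arrays, on 1 of which both arms were above background). That fit called 51 of the 569 miRs higher in IRI and 49 lower. Without the day 1 array the mean was 1.07, and without that of day 5 it was 1.05. With the sham level raised on each array to that of the dimmest miR above background, the fold was at least 1.91, from an IRI mean over all 8 days that includes day 10, when the IRI spots were not above background. With all normalized values under 200 set to 200, a cutoff that the study applied to its own expression values, the mean log2 ratio was 0.28. That cutoff set all 8 sham values and 4 of the 8 IRI values of miR-223 to 200, so it lowers this ratio by its construction.

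The highest IRI levels of miR-223 thus fell on days 7, 14 and 21, and on day 10, between them, neither arm was above background. The IRI channel of day 10 stood apart: its median miR exceeded the empty spots by 202 intensity units, against 26.1 to 49.2 on other IRI days. There 124 miRs were called above background, the fewest of the 17 samples. miR-223 exceeded the empty spots by 227 on day 10 and by 220 on day 3, when it was called above background. No trend over days was detected within IRI (slope of 0.17 per doubling of days, SE 0.13, limma adjusted p = 0.727 over all 569 miRs). The slope of the ratio was 0.17 (SE 0.15, limma adjusted p = 0.769 over all 569), and it was taken against sham values that were mostly not measured. On day 1 the IRI level of this myeloid miR was below that of naive (130 against 142). Both were dim and on separate arrays, and over the days the direction of IRI against naive was not settled for this miR.

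The myeloid miR-223 and the lymphoid miR-150 were also set against each other on the same arrays. The ratio slope of miR-223 minus that of miR-150 was -0.22 per doubling of days (exact permutation of the days p = 0.246), and without the day 1 array the difference was -0.53 (exact p = 0.0417). Their mean log2 ratios differed by 0.06 (exact sign-flip p = 0.859, n = 8 arrays). Both differences rest on sham values of miR-223 that were mostly not above background. This was the 1 pair compared.

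**Figure D3:**
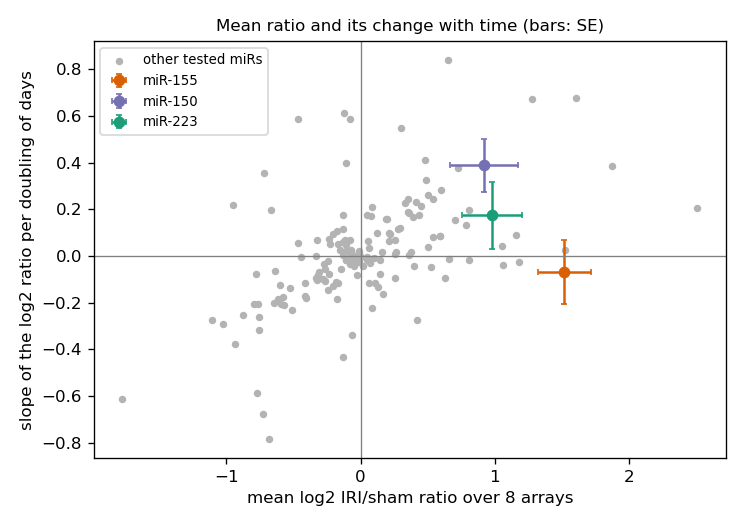
Slope of the log2 IRI/sham ratio per doubling of days against the mean log2 ratio over 8 arrays for the 162 tested miRs. Grey points are the other miRs, coloured points are the leukocyte miRs, and bars are SE. miR-150 lies at a slope of 0.39 and miR-155 at -0.07. miR-223 is among the points only through its IRI samples.

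Neither strand of miR-142 stood out from the array background. miR-142-3p lay between 89.7 and 101 in IRI, between 89.9 and 103 in sham and at 102 in naive. miR-142-5p lay between 86.8 and 103 in IRI, between 89.5 and 98.1 in sham and at 95.1 in naive. The arms overlapped for both strands, and no sample reached 200. On the sham arrays the spots of miR-142-3p exceeded the empty spots by 0.085 to 6.10 intensity units and those of miR-142-5p by -1.16 to 5.41, where the median miR exceeded them by 1.05 to 6.14. Each strand was above background in IRI of day 7 and in naive, 2 samples in which 372 and 347 of the 569 miRs were called above background. No fold is given for these strands, and their low signal does not show that the RNA was absent.

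Compared with the naive kidney, IRI was higher in miR-155 by 2.50 on the log2 scale (SD over days 0.66) and in miR-150 by 2.33 (SD 0.82). Sham was higher than naive by 0.99 in miR-155 (SD 0.56) and by 1.41 in miR-150 (SD 0.37). All 8 IRI and all 8 sham samples were above naive in miR-150, while in the processed values of the authors the sham sample of day 10 was below it (70 against 120). For miR-223 in IRI the difference was 0.53 (SD 0.66), but -0.0826 with the median of the spots and 1.17 with median scaling, so its direction is not settled, and none is given for sham, where 7 of 8 samples were not above background. The naive level of miR-150 was close to that of the median miR, and with values under 200 set to 200 its differences from naive were 1.34 in IRI and 0.43 in sham. Naive is 1 pool on 1 array, so these differences have no test, and sham differs from naive in dye as well. The size depended on the values used: with the processed values of the authors, IRI was higher than naive by 1.71 in miR-155 and by 1.45 in miR-150, and sham by 0.23 and 0.57. With median scaling IRI was higher by 3.66 in miR-155 and by 2.70 in miR-150, and sham by 1.90 and 1.47.

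The day-to-day course of each miR was then compared with that of the other tested miRs by the Pearson correlation of the log2 IRI/sham ratio over the 8 arrays, as a description. Closest to miR-150 were miR-342-3p (r = 0.95), a miR that is also abundant in lymphocytes, miR-125b-5p (r = 0.93) and miR-676 (r = 0.91). Without the day 5 array these were 0.95, 0.91 and 0.96, and without the day 1 array 0.94, 0.93 and 0.92. miR-342-3p had a mean log2 ratio of 0.72 (SE 0.24, limma adjusted p = 0.0447) and a ratio slope of 0.38 (adjusted p = 0.117), close to the values of miR-150.

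Closest to miR-155 were miR-221 (r = 0.97), the tubular miR-200a (r = 0.93) and miR-20a of the miR-17/92 cluster (r = 0.87). Without the day 5 array these fell to 0.84, 0.77 and 0.70, and without the day 1 array they were 0.99, 0.95 and 0.87. The miRs that went with miR-155 differed in direction, since miR-20a was higher in IRI (mean log2 ratio 0.81, adjusted p = 0.00566) and miR-200a lower (-1.11, adjusted p = 0.0231), both by limma. Closest to miR-223 were miR-28 (r = 0.84), miR-466f-3p (r = 0.79) and miR-290-5p (r = 0.79), none of which passed the test of the mean ratio. These ratios of miR-223 were taken against sham spots above background on 1 of 8 days, and on day 10 neither arm was above background. Among the leukocyte miRs themselves r was 0.51 between miR-150 and miR-223 and -0.45 between miR-155 and miR-150. The last became 0.23 without the day 5 array.

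**Figure D4:**
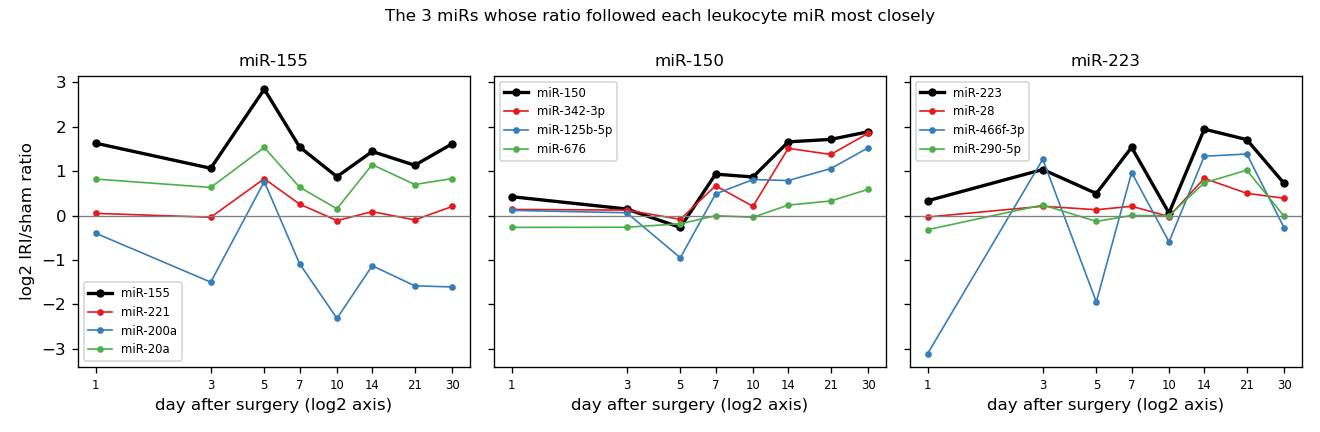
Log2 IRI/sham ratio against the day after surgery (log2 axis) for miR-155, miR-150 and miR-223 (black) and the 3 tested miRs whose ratio correlated most with each over the 8 arrays (colours). 1 point is 1 array. miR-342-3p followed miR-150 across the course (r = 0.95), and the 3 miRs beside miR-155 shared its peak on day 5.

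Of 8 other miRs of immune cells on the array 6 were tested and 4 were called higher in IRI, where 18.5% of all tested miRs were: miR-21 (mean log2 ratio 2.51), miR-146b (1.61), miR-146a (1.27) and miR-342-3p (0.72). miR-21 is also abundant in many other cells. Earlier work of the authors had named miR-21 and miR-146a as different between IRI and sham, so part of this count was known in advance. The ratio of miR-146a also rose with time (slope 0.68 per doubling of days, limma adjusted p = 0.0234), and its course had r = 0.89 with that of miR-150 over 8 arrays (0.91 without day 1, 0.95 without day 5). miR-181a (0.35, adjusted p = 0.156) and miR-181b (0.54, adjusted p = 0.0505) did not pass. The summed level of the list was 19373 to 30844 in IRI, 4318 to 9311 in sham and 3458 in naive. Without miR-21 the sum was 1518 to 7453 in IRI, 1323 to 1533 in sham and 1541 in naive. Each spot at background adds a value near 95 to such a sum. The median log2 ratio of the 6 tested was 1.00, against -0.04 for all 162. Also 4 of 6 were called higher without the day 1 array (17.5% of all tested miRs) and without the day 5 array (18.5% of all). With median scaling 6 of 7 were, against 21.8% of all tested miRs.

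Red cells also carry miRs, as do platelets, which hold miR-223 and for which no list was examined. Of miR-451, miR-486 and miR-144, 2 were tested and none was called by the mean ratio (-0.68 for miR-451, adjusted p = 0.242, and -0.78 for miR-486, adjusted p = 0.093). Both had ratios that fell with time, with slopes of -0.79 for miR-451 (adjusted p = 0.0124) and -0.59 for miR-486 (adjusted p = 0.0252), where 1.23% of the miRs were called falling. With median scaling the slopes were -0.65 and -0.46 and neither was called (adjusted p = 0.0755 and 0.0855). Without the day 1 array both were also called lower by the mean ratio (adjusted p = 0.0364 each, limma). Their ratios correlated with that of miR-150 at r = -0.72 each over 8 arrays. Without day 1 these were -0.83 for miR-451 and -0.73 for miR-486, and without day 5 they were -0.87 and -0.96. The summed level of the erythroid miRs was 328 to 1209 in IRI, 395 to 1491 in sham and 286 in naive, and their part in the result for miR-150 was not tested.

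Of the resident cells, 9 of 12 kidney tubule miRs were tested and 6 were called lower in IRI, where 17.9% of all tested miRs were, with a median log2 ratio of -0.42 and a summed level of 21012 to 35455 in IRI and 29277 to 39151 in sham. With median scaling 2 of 11 tubule miRs were called lower, against 5.77% of all tested miRs, with a median log2 ratio of -0.38 against 0.20 for all. Without the day 1 array 7 of 9 were called lower, against 17.5% of all tested miRs. Of 5 miRs of fibroblasts and smooth muscle, all were tested and 3 were called higher in IRI, where 18.5% of all tested miRs were: miR-199a-3p (1.87), miR-214 (1.16) and miR-199a-5p (0.43). The smooth muscle miRs miR-143 (-0.13, adjusted p = 0.488) and miR-145 (-0.13, adjusted p = 0.690) did not pass. The authors had earlier named miR-192, miR-194, miR-199a-3p and miR-214 as different between IRI and sham. Part of the tubule and fibroblast counts was therefore known in advance. The ratio of miR-199a-3p also rose with time (slope 0.39, limma adjusted p = 0.0257). No ratio slope of miR-146a, miR-199a-3p or any other miR was called with median scaling. The endothelial miR-126-3p had a mean log2 ratio of -0.03 (adjusted p = 0.841). Of miR-124, miR-9 and miR-122, which mark brain and liver, only miR-122, the liver miR, was tested, and it was not called (-0.73, adjusted p = 0.392). Its level was 3092 in the sham sample of day 30 and 58.1 to 123 in the other 16 samples, and without that day its mean log2 ratio was -0.0097 (SD 0.070, 7 arrays). The ratio of miR-150 was highest on that day (1.88), and without it the mean log2 ratio of miR-150 was 0.78 (limma adjusted p = 0.0568). The share of these cells in the values of the leukocyte miRs was not tested.

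**Figure D5:**
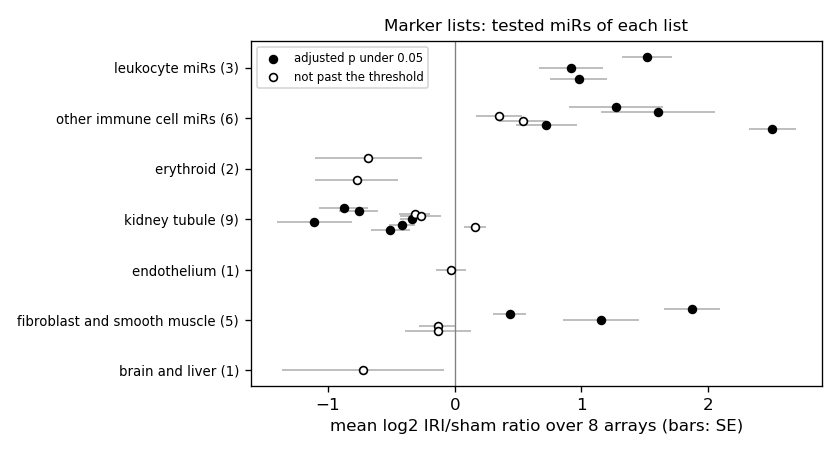
Mean log2 IRI/sham ratio over 8 arrays for the tested miRs of each marker list, with the number tested in parentheses. Filled points had a limma adjusted p under 0.05, open points did not, and bars are SE. miR-155, miR-150 and 4 of 6 other immune miRs were called higher in IRI, where 18.5% of all tested miRs were. miR-223 was tested only through its IRI samples, so its point is a description. Of 9 kidney tubule miRs 6 were called lower here (17.9% of all tested miRs), and 2 of 11 with median scaling (5.77% of all).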

How the data were processed

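The files deposited by the authors hold a scanner intensity for every spot, linear and not background-corrected, and a table with 1 processed intensity per miR and sample. How that table was normalized is not stated in the sources that were read. The processed columns followed their own channel (r of at least 0.981) more closely than the other (at most 0.956), and their medians lay between 17 and 20. Intensities were corrected with normexp in limma 3.58.1 (R 4.3.3, offset 50, all spots of a channel), averaged over the 6 spots of a miR, normalized by loess within arrays with controls at weight 0, and quantile-normalized between arrays with naive. The header of the day 5 file names its channels Sample A and Sample B, and the first was taken as IRI after the labels. The 162 of 569 miRs that reached 200 in at least 1 of 17 samples were tested with limma, with the log2 IRI/sham ratio against 0 and slopes over log2(day), and Benjamini-Hochberg adjustment at 0.05. The array was the block, since IRI and sham of a day share it. Exact tests used all 256 sign flips or all 40320 orders of the days, two-sided. A miR was above background where its mean lay over the median of the channel's 250 empty spots by more than 3 scaled median absolute deviations. Arrays give no counts, so their number limits the precision.

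The members, lists and tests were chosen with earlier results of these data known. Named were the members, the 3 tested miRs closest to each tested member in the course of the ratio, and the marker lists. A second planned pair, miR-142-3p against miR-142-5p, was not compared because both were at background. The fits were tested on simulated data. Alternatives were the authors' processed values, another background correction, median scaling, other filters, a floor of 200, the median of spots, no block, a linear time scale, another variance model and leaving out each day. Mature sequences came from the deposited files and were matched to RefSeq (GRCm38.p6) for 4 of 5 members.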

Additional observations from a re-analysis of the deposited data

Results flagged for a closer look

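The log2 IRI/sham ratio of miR-155 on day 5 was 2.84, and its gap to the next highest of the 8 arrays (1.63, day 1) was larger than a test for a single stray sample allows. It was the 1 flag among 9 groups of 8 values tested (the IRI level, the sham level and the ratio of 3 miRs), and chance flags about 1 group in 20. The 6 spots of miR-155 on that array had an SD of the log2 ratio of 0.08. The day 5 array also held the highest or lowest ratio of 63 of the 162 tested miRs, and the mean log2 ratio of miR-155 without it was 1.33.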

How the results depend on the processing

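The mean IRI/sham ratio of miR-155 stayed past the threshold under all 19 alternatives (1.33 to 1.76). Over all 23 results, 338 of 411 alternative values kept their direction and their side of the threshold, or moved by less than the spread between days. Leaving out 1 day at a time, the miRs called by the mean ratio numbered 26 to 59, by the ratio slope 0 to 18, by the IRI slope 2 to 20 and by the sham slope 0 to 3. The mean ratio of miR-150 was then 0.78 to 1.09 and lost its call without days 7, 14, 21 or 30. Its ratio slope was 0.35 to 0.64, past the threshold only without day 1, and its IRI slope 0.32 to 0.56, past it only without day 10. The sham slopes ran from -0.191 to 0.093 for miR-155, from -0.0866 to 0.0681 for miR-150 and from -0.0342 to 0.00883 for miR-223, so their signs turned. The slope difference of miR-223 and miR-150 ran from -0.53 (without day 1, exact p = 0.0417) to -0.077, and their mean difference from -0.0597 to 0.23, negative without days 3, 5 or 7.

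With the processed values of the authors, 7 miRs had a called ratio slope, the sham slope of miR-223 was 0.0272, and the differences from naive were 1.71 (IRI) and 0.23 (sham) for miR-155 and 1.45 and 0.57 for miR-150. With median scaling, 34 of 156 miRs were called higher and 9 lower by the mean ratio, the 3 slope comparisons called 0 miRs each, the ratio slope of miR-155 turned to 0.0968, the IRI slope of miR-150 was 0.49 without a call (adjusted p = 0.333), its sham slope turned to -0.0496, and the differences from naive were 3.66 and 1.90 for miR-155. Without a filter, 100 of 569 miRs were called by the mean ratio, 0 by the ratio slope, 2 by the IRI slope and 1 by the sham slope, and the IRI slope of miR-150 (0.42) was not called. With a floor of 200, 30 miRs were called by the mean ratio, 2 by the IRI slope and 1 by the sham slope. The mean ratio (0.91, adjusted p = 0.0555) and the IRI slope (0.42) of miR-150 were then not called, and the differences from naive were 1.34 and 0.43 for miR-150. The floor put all 8 sham values of miR-223 at 200, which by construction lowered its mean ratio to 0.28 and its mean difference from miR-150 to -0.63, and a filter on a mean of 200 dropped miR-223. A linear scale of days gave 14 called ratio slopes, with miR-150 among them (0.0682 per day, adjusted p = 0.0394), and a sham slope of 0.00432 per day for miR-155. With an intensity trend and robust variance 1 sham slope was called. The upper or the lower spots of the array alone, tried after seeing the data, changed no call of a leukocyte miR. Where IRI and sham were taken as independent samples, with no replicate block, 2 ratio slopes were called and the calls of miR-155 and miR-150 did not change (adjusted p for the mean ratio 0.00168 and 0.0313). The cause of these changes was not tested. The signal over background limits miR-223 in sham and both miR-142 strands.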

Other observations

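The opposite strand of the miR-150 hairpin, miR-150*, was also on the array. It was above background on 2 of 8 IRI days and on 1 of 8 sham days. Its level was 89.6 to 108 in IRI, 97.4 to 111 in sham and 86.0 in naive, so the arms overlapped, and it was not tested since no sample reached 200.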
